A study of Mus musculus with 135 samples.

Results

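The tight junction genes of the blood-brain barrier were followed in male Townes mice through bulk RNA-seq of 2 brain regions, cortex and hippocampus. The genes are Cldn5, Ocln, Tjp1, Esam, Jam2, F11r, Marveld2, Lsr and Cgn, taken from both count tables by their symbols, and they are 9 of 55416 genes. In Townes mice human globin genes replace those of the mouse, and this holds for every group, so that AA mice carry normal human hemoglobin and SS mice carry sickle hemoglobin. The mice were 6 months old, and the study asked what social stress and minocycline, a tetracycline antibiotic that also dampens inflammation, do to the brain in sickle cell disease. AA and SS denote mice with neither stress nor drug. AA + RSD and SS + RSD mice went through repeated social defeat (RSD), in which an aggressive male mouse was placed in the cage of resident males every day. AA + minocycline and SS + minocycline mice had the drug in their drinking water without RSD, and AA + RSD + minocycline and SS + RSD + minocycline mice had the drug from the day before RSD and during it. Of AA mice the cortex models held 12 controls, 18 with RSD and minocycline, 2 with RSD and 1 with minocycline. Of SS mice they held 8 controls, 14 with RSD and minocycline, 6 with RSD and 4 with minocycline. The hippocampus had the same numbers except for 11 AA and 7 SS mice, and the library of 1 mouse is the replicate throughout.

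Tight junctions seal the cleft between neighbouring endothelial cells of brain vessels, so that solutes must pass through the cells rather than between them. Claudins and occludin span the membrane as strands, junctional adhesion molecules of the immunoglobulin family assemble the contact, and cytoplasmic plaque proteins tie both to actin. Where cells meet in threes, the seal is closed by tricellular proteins. In the brain the choroid plexus epithelium and the ependyma also use several of these genes, and some are expressed by glia or neurons, so a piece of tissue measures the sum over its cells.

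All positions of genes are on GRCm39. Among the strand-forming genes, Cldn5 (ENSMUSG00000041378.3, chromosome 16, 18595597 to 18597012) encodes claudin-5, the main claudin of brain endothelium, and is a gene of 1 exon on the plus strand. Ocln (ENSMUSG00000021638.13, chromosome 13, 100630334 to 100689535, minus strand) encodes occludin. Marveld2 (ENSMUSG00000021636.16, chromosome 13, 100732464 to 100753489, minus strand) encodes tricellulin, and Lsr (ENSMUSG00000001247.17, chromosome 7, 30657195 to 30673340, minus strand) encodes angulin-1, which recruits tricellulin to corners between cells. The adhesion molecules are Esam (ENSMUSG00000001946.15, chromosome 9, 37439344 to 37449615, plus strand), an adhesion molecule of endothelial cells and platelets, Jam2 (ENSMUSG00000053062.17, chromosome 16, 84570764 to 84623269, plus strand) and F11r (ENSMUSG00000038235.5, chromosome 1, 171265092 to 171292958, plus strand), which encodes JAM-A. The plaque proteins are Tjp1 (ENSMUSG00000030516.15, chromosome 7, 64945898 to 65177529, minus strand), which encodes ZO-1, and Cgn (ENSMUSG00000068876.17, chromosome 3, 94667376 to 94695136, minus strand), which encodes cingulin. Reads were counted over the exons of each gene, untranslated ends included. A gene on the other strand, Gm4673, covers 32.97% of the exon bases of Lsr, and for the other 8 genes such an overlap is at most 5.14%. Whether counting used the strand is not given in the sources used here, so the reads of Lsr and Gm4673 may not be separable.

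The 250 bases before the start of transcription are shown for Ocln, the gene that differed most between the tissues, and for Cldn5 and Cgn, which moved in opposite directions across libraries. The sequences come from RefSeq on GRCm38.p6, read in the direction of the gene, and 7 of the 9 genes had such a window, Esam and Jam2 not. Capitals mark the GC box GGGCGG, the ETS motif CCGGAA and the TATA box TATAAA, each searched on both strands. The windows are chr13:100552719-100552968 (minus strand) for Ocln, chr16:18776597-18776846 (plus strand) for Cldn5 and chr3:94786483-94786732 (minus strand) for Cgn.
Ocln: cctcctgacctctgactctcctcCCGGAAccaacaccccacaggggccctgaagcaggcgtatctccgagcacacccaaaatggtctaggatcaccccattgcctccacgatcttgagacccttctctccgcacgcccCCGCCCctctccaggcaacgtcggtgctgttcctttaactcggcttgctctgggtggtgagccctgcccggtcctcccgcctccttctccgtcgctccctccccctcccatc
Cldn5: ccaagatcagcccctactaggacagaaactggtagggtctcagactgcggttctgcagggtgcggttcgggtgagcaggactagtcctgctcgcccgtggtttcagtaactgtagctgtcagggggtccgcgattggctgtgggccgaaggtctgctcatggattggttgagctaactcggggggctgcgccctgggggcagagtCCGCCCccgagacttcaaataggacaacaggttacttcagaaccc
Cgn: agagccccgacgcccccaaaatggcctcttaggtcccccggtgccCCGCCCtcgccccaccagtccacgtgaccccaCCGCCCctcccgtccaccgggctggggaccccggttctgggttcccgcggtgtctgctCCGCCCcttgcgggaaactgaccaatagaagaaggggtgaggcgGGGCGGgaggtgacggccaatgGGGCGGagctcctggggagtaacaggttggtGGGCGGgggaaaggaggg
The window of Cgn held 6 GC boxes and had 70.4% G and C, that of Ocln held 1 GC box and 1 ETS motif with 64%, and that of Cldn5 held 1 GC box with 59.6%. Over the windows of 27025 genes the median was 52%, and 33% held a GC box, 12.3% an ETS motif and 13% a TATA box. A GC box was present in 7 of the 7 windows, 2 each in Tjp1 and Lsr and 1 each in F11r and Marveld2. The ETS motif was present in Ocln and Lsr, and the TATA box in Marveld2. These matches describe the letters of the windows and not the binding of a factor.

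Levels are given as CPM, read counts scaled to a library of 1000000 reads on genes with TMM scaling factors, and between genes only per 1000 bases of exon. On that scale Cldn5 was the most abundant, with a median over all cortex libraries of 20.9 CPM per kilobase and 21.2 in the hippocampus, followed by Tjp1 (13.8 and 13.3), Esam (6.05 and 5.31) and Jam2 (3.66 and 3.56). F11r had 2.15 and 2.53, Lsr 2.08 and 2.14, and Cgn 1.13 and 1.02. Ocln had 0.936 and 1.49, below Cgn in the cortex and above it in the hippocampus. Marveld2 was lowest, with 0.558 and 0.572, and its libraries held from 16 to 209 reads on the gene, so that counting error adds to the spread between its mice. The other 8 genes had at least 59 reads in each library. Among mice the range was wide for Cldn5 in the cortex, from 11.98 to 72.4 CPM, and narrow for F11r, from 5.22 to 12.3 CPM.

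**Figure D1:**
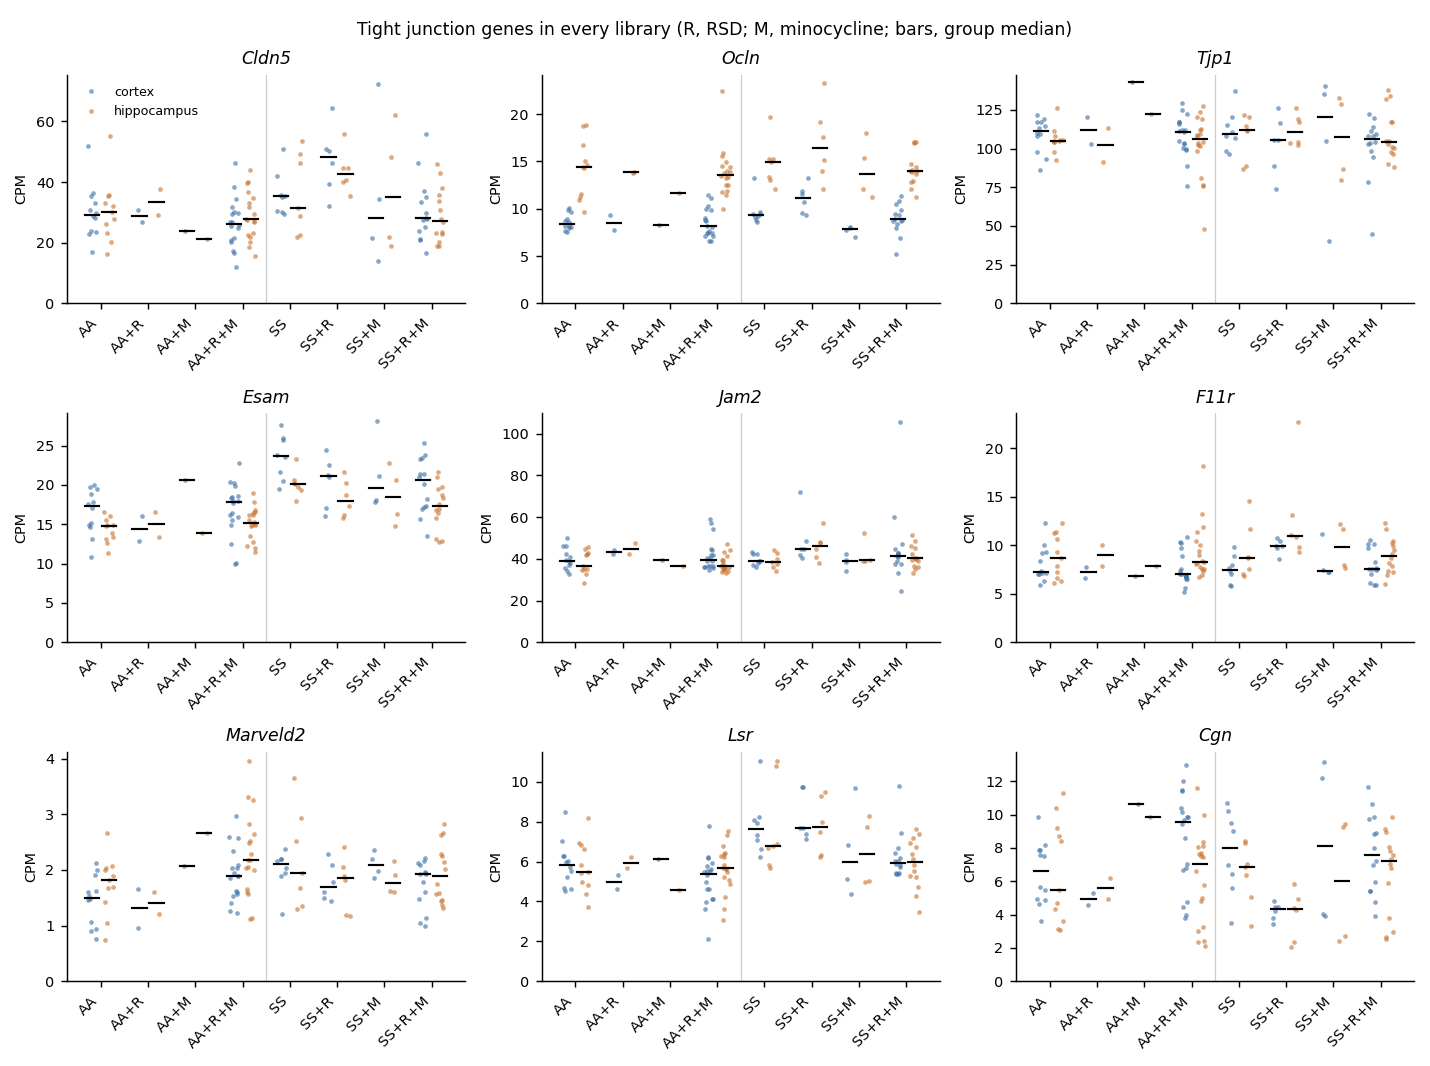
CPM of each of the 9 genes (y axis, from 0) in every library of the models, by group on the x axis, with cortex in blue and hippocampus in orange. A point is 1 library and a bar is the median of its group. Esam sits higher in SS than in AA mice in both tissues, Ocln sits higher in the hippocampus than in the cortex, and Cgn and Cldn5 spread widely within most groups.

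Depth, as reads on genes, was 16295042 to 107713193 in cortex and 12869149 to 68731008 in hippocampus libraries. The tissue labels were checked against marker genes, and of AA mice 8 of 8 hippocampal markers were higher in the hippocampus and 6 of 6 cortical markers lower. Both libraries of the AA + RSD mouse 9674 went against these labels, with 16.8 CPM of Ocln in the cortex library and 9.41 in the hippocampus library. They were left out, and so were the libraries of 2 mice whose counts are identical under different groups. The mouse numbers of the labels form ranges, named series A to C. Mice with RSD alone, of both genotypes, belong to series A, those given minocycline to series B or C, and the controls to A and B. In 4 further mice blood genes went against the labelled genotype. The red blood cell markers were high in AA mice 5844 and 5853 (52.1 to 115 CPM in sum) and low in SS mouse 7078 (4.01 and 7.31 CPM), and AA mouse 9631 had 39.4 and 33.1 CPM of the mouse globin gene Hbb-bs, against at most 0.241 CPM in any other library. For SS against AA mice and, in the cortex, SS + RSD + minocycline against SS + RSD mice, values are also given without these 4 mice. The share of reads that fell outside annotated genes split the libraries, with 27 cortex libraries at 3.69% to 6.09% and 38 at 7.34% to 13.9%, and with 26 hippocampus libraries at 3.98% to 5.77% and 37 at 6.49% to 24.01%. Of the SS + RSD libraries 5 of 6 in the cortex and 6 of 6 in the hippocampus had the low share, of the SS libraries 2 of 8 and 2 of 7, and of the SS + RSD + minocycline libraries 5 of 14 and 4 of 14.

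Between the tissues of control mice, occludin was the tight junction gene that differed most. Ocln had 9.66, 14.4 and 18.8 CPM (lowest, median and highest) in the hippocampus of 11 AA mice and 7.50, 8.41 and 10.1 CPM in the cortex of 12. In SS mice it had 12.1, 14.9 and 19.7 CPM in 7 hippocampi and 8.56, 9.31 and 13.2 CPM in 8 cortices. The ranges overlapped through the lowest hippocampus library of AA mice and through the cortex library of SS mouse 9903, and in each mouse with both tissues the hippocampus was higher. The log2 fold change was 0.72 (SE 0.096, fold 1.65, adjusted p = 6.66e-08) in AA and 0.59 (SE 0.12, fold 1.501, adjusted p = 1.28e-04) in SS mice, by edgeR's quasi-likelihood test with Benjamini-Hochberg adjustment. This fit held no term for the mouse, although 18 control mice gave both tissues. With the mouse as a block Ocln stayed called in both genotypes. Of all genes, 36.6% differed between the tissues in AA and 30.6% in SS mice in the fit without the block, so a called gene is common in this comparison. In bulk tissue, fewer cells of a type and less RNA per cell cannot be told apart.

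Esam was lower in the hippocampus of AA mice, with a log2 fold change of -0.21 (SE 0.080, adjusted p = 0.0323), and had -0.25 (SE 0.099, adjusted p = 0.0558) in SS mice, where the fit with the mouse as a block gave -0.21 and an adjusted p of 0.0447. The AA call rests on the choice of libraries, since without those with over 1000 CPM of Ttr, a choroid plexus gene, Esam had -0.19 (adjusted p = 0.0946). Ocln had 0.63 in AA mice without these libraries. The other 7 genes were not called in either genotype, with log2 fold changes from -0.07 (Jam2) to 0.26 (Marveld2) in AA and from -0.28 (Cgn) to 0.28 (F11r) in SS mice. Over the 9 genes the median was 0.02 in AA and -0.05 in SS mice, beside 0.01 and 0.02 over all genes tested. Of 18 records of further tight junction genes 4 were higher and 4 lower in the hippocampus of AA mice, and 3 were higher and 6 lower in SS mice. Among them Tjp3, which encodes ZO-3, rose by 3.24 and 1.91 on the log2 scale, the polarity gene Pard3 rose by 0.46 and 0.35, and the claudin gene Cldn12 fell by 0.47 and 0.46. Markers of the choroid plexus were higher for 11 of 11 in AA and 2 of 11 in SS mice, and endothelial markers were higher in 0 and lower in 3 of 18 in AA and in 1 of 18 in SS mice. The part of these other cells in the difference of Ocln was not tested.

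**Figure D2:**
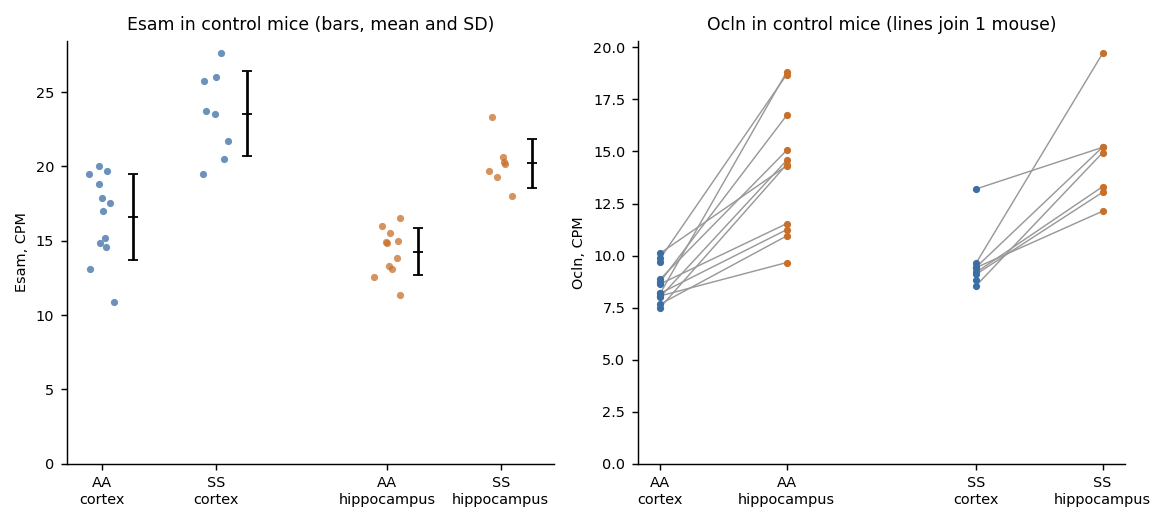
Left, CPM of Esam in control mice by genotype and tissue, with the mean and SD beside the points. Right, CPM of Ocln in both tissues of the control mice, where a line joins the libraries of 1 mouse. The 7 SS hippocampus libraries of Esam sit at 18.02 CPM or above and the 11 AA libraries at 16.5 CPM or below, and each Ocln line rises from cortex to hippocampus.

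Esam was higher in the brain of SS than of AA mice in both tissues. In the cortex Esam had 19.5, 23.6 and 27.6 CPM in 8 SS mice and 10.9, 17.3 and 20.02 CPM in 12 AA mice, with means of 23.5 ± 2.84 and 16.6 ± 2.89 CPM (SD). In the hippocampus it had 18.02, 20.2 and 23.3 CPM in 7 SS mice and 11.3, 14.8 and 16.5 CPM in 11 AA mice, with means of 20.2 ± 1.62 and 14.3 ± 1.57 CPM. The hippocampal ranges did not overlap, and in the cortex the lowest SS mouse lay among the highest AA mice. The number of all genes whose ranges did not overlap was not counted. The log2 fold change was 0.48 (SE 0.11, fold 1.39, adjusted p = 0.0429) in the cortex and 0.49 (SE 0.099, fold 1.41, adjusted p = 0.00580) in the hippocampus. The tissues come from the same mice and are not independent of each other. Of the 9 genes 1 was called in each tissue, where 0.206% of 22870 genes were called in the cortex and 0.158% of 23372 in the hippocampus.

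The size of the Esam difference changed little with the processing, while its call did not hold throughout. All alternatives kept it higher in SS mice, 16 in the cortex and 15 in the hippocampus, with the call kept in 8 and 11 of them. Within series B alone it was 0.50 (adjusted p = 0.0577) in the cortex and 0.51 (adjusted p = 0.0505) in the hippocampus, and within series A alone, with 2 SS mice in each tissue, 0.43 (adjusted p = 1) and 0.41 (adjusted p = 1). The cortex library of SS mouse 9903 had 1100 CPM of Ttr, and without it Esam came to 0.44 (adjusted p = 0.171), as it did to 0.46 (adjusted p = 0.165) in the hippocampus without the libraries with over 1000 CPM of Ttr. Without the 4 mice whose blood genes went against the label Esam had 0.53 (adjusted p = 0.0442) and 0.52 (adjusted p = 0.00277). A model with a term for the number series gave 0.46 (adjusted p = 0.0710) and 0.49 (adjusted p = 0.00234).

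Other genes of vessels moved with Esam. Of 18 endothelial markers 3 were higher and 0 lower in the cortex of SS mice, namely Sox17, a transcription factor of arterial endothelium (0.74), Eng, which encodes endoglin (0.67), and Kdr, a VEGF receptor (0.71). In the hippocampus 2 of 18 were higher, Eng (0.61) and Kdr (0.64). The median log2 fold change of the 18 markers was 0.26 and 0.37, beside -0.05 and 0.01 over all genes tested, and their summed level ranged from 559 to 797 CPM in AA and from 700 to 828 CPM in SS cortex libraries, and from 521 to 684 and from 680 to 862 CPM in the hippocampus. Of 8 mural cell markers Kcnj8 was higher in both tissues (0.66 and 0.82) and Vtn in the hippocampus (0.65). The 5 red blood cell markers were all higher in SS mice in both tissues, with a summed level of 61.4 to 148 CPM in SS and 3.04 to 115 CPM in AA cortex libraries. Among the choroid plexus markers Slc4a5 (2.97) and Ttr (3.54) were called in the cortex, where the library of mouse 9903 alone had 1100 CPM of Ttr and the SS mice had a median Ttr of 7.09 CPM, below the 10.8 CPM of the AA mice. The part of these cells in the difference of Esam was not tested.

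The other strand, adhesion and plaque genes were not called in SS against AA mice. The nearest were the tricellular pair, with Lsr at 0.39 (SE 0.14, adjusted p = 0.546) in the cortex and 0.40 (SE 0.16, adjusted p = 0.951) in the hippocampus, and Marveld2 at 0.44 (SE 0.17, adjusted p = 0.678) and 0.33 (SE 0.21, adjusted p = 1). Cldn5 had 0.24 in both tissues, with 95% intervals from -0.17 to 0.66 and from -0.19 to 0.67. Tjp1 had 0.00 with an interval from -0.25 to 0.26 in the cortex and 0.02 with an interval from -0.21 to 0.24 in the hippocampus. Ocln, Jam2, F11r and Cgn lay between -0.13 and 0.22 in the cortex, and their hippocampal values between -0.03 and 0.06. The median over the 9 genes was 0.22 and 0.06. Of 19 records of further tight junction genes and 9 adherens junction genes edgeR called 0 in either tissue, with cortical median log2 fold changes of -0.06 and -0.11 and hippocampal medians of -0.07 and -0.04.

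Between SS and AA mice that both went through RSD, 0 of the 9 genes were called by edgeR or by DESeq2, and 2 in the cortex and 0 in the hippocampus had an unadjusted p under 0.05. Of 22870 genes in the cortex edgeR called 0 (0.0%) and DESeq2 14, while 670 had an unadjusted p under 0.05, and in the hippocampus 0.0171% were. The 2 AA + RSD mice had 12.88 and 16.04 CPM of Esam in the cortex, just below the 6 SS + RSD mice at 16.05, 21.1 and 24.4 CPM. They had 4.63 and 5.35 CPM of Lsr, below 7.15, 7.70 and 9.72 CPM. Both genes separated the groups without a call, with log2 fold changes of 0.45 (SE 0.21, adjusted p = 1) for Esam and 0.67 (SE 0.26, adjusted p = 1) for Lsr. F11r, Ocln and Cldn5 did not overlap either in the cortex, where the gap for Ocln was from 9.32 to 9.34 CPM. In the hippocampus the ranges overlapped for each of the 9 genes. How many of all genes separate in this way was not counted. With 2 AA + RSD mice the separation is therefore not read as a result on these genes. With RSD and minocycline in both genotypes, 14 SS and 18 AA mice, 0 of the 9 genes were called by either tool, where 0.599% of all genes were called in the cortex and 2.73% in the hippocampus. Unadjusted p fell under 0.05 for 2 of the 9 genes in the cortex, beside 2035 of 22870 tested. In the hippocampus it did for 1 of the 9, beside 1997 of 23372. Esam had 0.22 (SE 0.089, adjusted p = 0.386) in the cortex and 0.18 (SE 0.074, adjusted p = 0.297) in the hippocampus. Its range was 13.5 to 25.3 CPM in SS and 9.92 to 22.8 CPM in AA cortex libraries, a broad overlap.

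In that same comparison other vessel genes were called. Slc2a1, which encodes the glucose transporter of brain endothelium, was higher in SS + RSD + minocycline mice in both tissues (0.52 and 0.45), as was Eng (0.41 and 0.39), and 3 and 6 of the 18 endothelial markers were higher in all, with 0 lower. The 19 records of further tight junction genes had 0 calls. Whether RSD acted differently on the 9 genes in SS and in AA mice was tested as an interaction. Of the 9 genes 0 were called, by edgeR or DESeq2, and 0 had an unadjusted p under 0.05 in either tissue. Of all genes 0 were called in the cortex (0.0%, 424 at an unadjusted p under 0.05 and 2 called by DESeq2) and 0.0128% in the hippocampus. The estimates of the 9 genes were wide, from -0.51 (SE 0.45) for Cgn to 0.54 (SE 0.28) for F11r in the cortex, since the AA + RSD group holds 2 mice.

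Across the groups, the order of Esam in the cortex ran from SS mice (median 23.6 CPM) through SS + RSD (21.1), the single AA + minocycline mouse (20.6), SS + RSD + minocycline (20.57), SS + minocycline (19.6), AA + RSD + minocycline (17.8) and AA (17.3) to AA + RSD (14.5). In the hippocampus it ran from SS (20.2) through SS + minocycline (18.4), SS + RSD (18.01), SS + RSD + minocycline (17.3), AA + RSD + minocycline (15.1), AA + RSD (15.03) and AA (14.8) to AA + minocycline (13.8). The ranges of neighbours in these orders overlapped throughout.

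**Figure D3:**
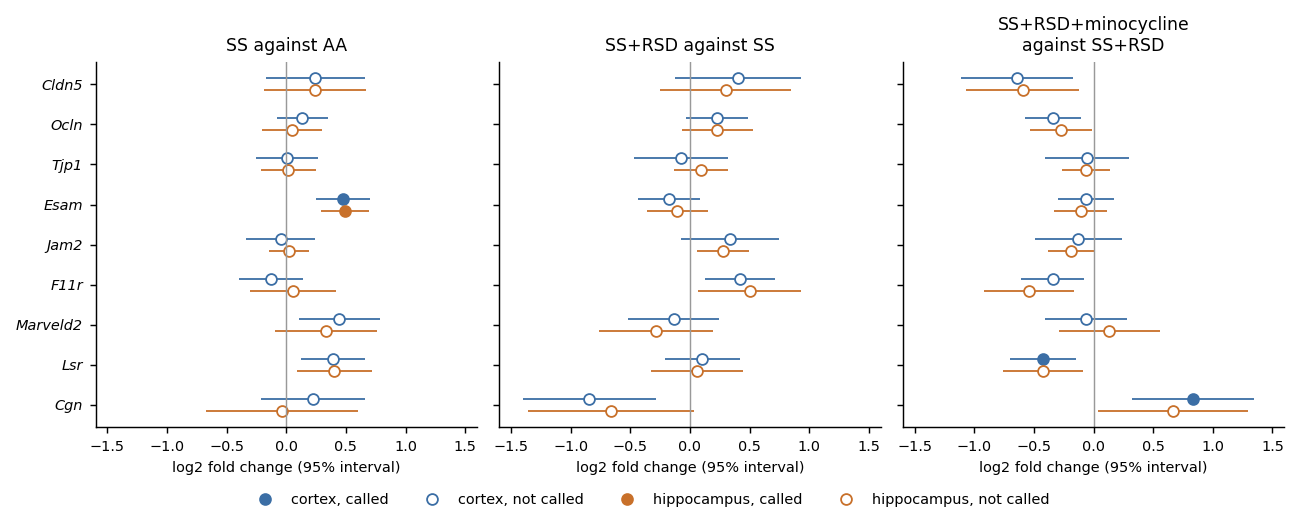
Log2 fold changes of the 9 genes with 95% intervals in 3 comparisons, for cortex (blue) and hippocampus (orange), with filled points for an adjusted p under 0.05. Esam is filled in both tissues in SS against AA mice, no point is filled for SS + RSD against SS mice, and Cgn (0.83) and Lsr (-0.42) are filled in the cortex for SS + RSD + minocycline against SS + RSD mice.

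RSD in SS mice came with no call among the 9 genes by edgeR in either tissue, where 2.57% of all genes were called in the cortex and 3.11% in the hippocampus. Unadjusted p fell under 0.05 for 2 of the 9 genes in each tissue. Of all genes tested it did for 5508 of 19906 in the cortex and 4050 of 20701 in the hippocampus. DESeq2 called 1 of the 9 in the cortex, Cgn, and 0 in the hippocampus. The share of all genes that DESeq2 called is not given here. Cingulin had the largest difference. Cgn had 3.41, 4.33 and 4.79 CPM in the cortex of 6 SS + RSD mice and 3.52, 8.003 and 10.7 CPM in 8 SS mice. The SS + RSD mice sat together at the low end of the SS range, with a log2 fold change of -0.85 (SE 0.27, adjusted p = 0.0680). In the hippocampus Cgn had 2.07, 4.36 and 5.82 CPM against 3.29, 6.88 and 8.39 CPM, a log2 fold change of -0.66 (SE 0.34, adjusted p = 0.288). The model of only these groups called Cgn and F11r in the cortex, and its share of all genes called is not given here.

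The JAM-A gene F11r lay on the other side. It had 8.58, 9.91 and 10.7 CPM in the cortex of SS + RSD mice and 5.82, 7.48 and 9.84 CPM in SS mice, a log2 fold change of 0.42 (SE 0.14, adjusted p = 0.0795). In the hippocampus it had 0.50 (SE 0.21, adjusted p = 0.180), with 22.7 CPM in the SS + RSD library of mouse 9615, which had 9097 CPM of Ttr. Cldn5 had 32, 48.3 and 64.3 CPM in the cortex of SS + RSD and 29.5, 35.3 and 50.9 CPM in that of SS mice, a log2 fold change of 0.41 with an interval from -0.12 to 0.93. Jam2 had 0.34 (adjusted p = 0.262) in the cortex and 0.28 (adjusted p = 0.140) in the hippocampus. Ocln, Lsr, Tjp1, Marveld2 and Esam lay between -0.17 and 0.23 in the cortex, and their hippocampal values between -0.28 and 0.23. The endothelial, adherens junction and further tight junction lists had 0 calls by edgeR in either tissue.

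The share of reads outside annotated genes and the number series moved with this comparison. Among libraries of the low share only, 5 SS + RSD and 2 SS mice, Cgn had -0.15 (adjusted p = 1), F11r 0.10 and Cldn5 -0.02 in the cortex. With the number series as a term Cgn had -0.11 (SE 0.37, adjusted p = 1), F11r 0.08 and Cldn5 0.01 in the cortex. Within series A alone, which holds the 6 SS + RSD and 2 of the SS mice, Cgn had -0.12 (SE 0.22, adjusted p = 1.00), F11r 0.07 and Cldn5 0.01 in the cortex, so the comparison within the series rests on those 2 controls. The 2 SS mice of low share are the same controls, 5349 and 5353, so these fits are not separate checks.

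In AA mice, RSD and RSD with minocycline gave 0 calls among the 9 genes in either tissue, by edgeR or by DESeq2. AA + RSD against AA mice had 0.0% of genes called in the cortex (1148 at an unadjusted p under 0.05 and 21 called by DESeq2) and 0.0419% in the hippocampus, with 0 of the 9 genes at an unadjusted p under 0.05 in either tissue. AA + RSD + minocycline against AA + RSD mice had 0.0% (2867 at an unadjusted p under 0.05, and 28 higher and 50 lower by DESeq2) and 0.0419% (1494 at an unadjusted p under 0.05). Of the 9 genes 1 had an unadjusted p under 0.05 in each tissue. These comparisons share the 2 AA + RSD mice. Cgn had -0.38 (SE 0.37) and 0.77 (SE 0.37, adjusted p = 0.377) in the cortex in these 2 comparisons, with 4.60 and 5.32 CPM in the AA + RSD mice, 3.58 to 9.86 CPM in AA mice and 3.8 to 12.99 CPM in AA + RSD + minocycline mice. Jam2 in the hippocampus had 0.24 (adjusted p = 0.899) and -0.25 (adjusted p = 0.696).

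Minocycline in SS mice that went through RSD was where 2 of the 9 genes were called, both in the cortex. Cgn was higher in 14 SS + RSD + minocycline mice, with 3.91, 7.59 and 11.7 CPM against 3.41, 4.33 and 4.79 CPM in 6 SS + RSD mice. Its log2 fold change was 0.83 (SE 0.25, fold 1.78, adjusted p = 0.0361), and the low end of the treated range overlapped the untreated mice. The angulin-1 gene Lsr was lower, with 5.37, 5.95 and 9.81 CPM against 7.15, 7.70 and 9.72 CPM, a log2 fold change of -0.42 (SE 0.14, fold 0.746, adjusted p = 0.0472). Of all genes 8.85% were called in this comparison, 1270 higher and 492 lower.

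Of the other genes 3 lay just past the threshold in the same tissue. Ocln had 5.25, 8.88 and 11.4 CPM against 9.34, 11.2 and 13.3 CPM, a log2 fold change of -0.34 (SE 0.11, adjusted p = 0.0544). Cldn5 had 16.5, 28.1 and 55.8 CPM against 32, 48.3 and 64.3 CPM, which is -0.64 (SE 0.23, adjusted p = 0.0703). F11r had -0.34 (SE 0.13, adjusted p = 0.0875). In most treated mice each of these 3 genes lay under the lowest untreated mouse, without a call. For how many of all genes this holds was not counted, so it is not read as a result on these genes. Of the 9 genes 5 had an unadjusted p under 0.05, beside 5252 of 19906 genes tested. Tjp1 had -0.06 with an interval from -0.41 to 0.30, and Esam, Jam2 and Marveld2 lay between -0.13 and -0.06.

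In the hippocampus 0 of the 9 genes were called by edgeR, where 5.96% of all genes were called. DESeq2 called 1 of the 9, F11r, and its share of all genes called is not given here. Of the 9 genes 5 had an unadjusted p under 0.05, beside 5539 of 20701 genes tested. The directions were those of the cortex for F11r (-0.54, adjusted p = 0.0669), Cldn5 (-0.59, adjusted p = 0.101), Lsr (-0.43, adjusted p = 0.0998), Ocln (-0.27, adjusted p = 0.168) and Cgn (0.67, adjusted p = 0.161). The untreated mice are the same in both tissues. Genes of other junctions were called lower. In the cortex they were the adherens junction genes Pecam1 (-0.63), Ctnna1, which encodes alpha-catenin (-0.34), and Cdh5, which encodes VE-cadherin (-0.50), 3 of 9, with 0 higher. In the hippocampus Pecam1 (-0.51) was lower among them, as were Pard3 (-0.30) and Cgnl1, which encodes paracingulin (-0.89), among 19 records of further tight junction genes, a list with 0 calls in the cortex. Of the endothelial markers 3 of 18 were lower in the cortex and 2 of 18 in the hippocampus, with median log2 fold changes of -0.28 and -0.21, and the summed level ranged from 687 to 855 CPM in SS + RSD and from 586 to 845 CPM in SS + RSD + minocycline cortex libraries. Pecam1 and Cdh5 stand in both the adherens junction and the endothelial list and are counted in each. Markers of other cells were called lower too. In the cortex they were Aldh1l1 (-0.46) and Gja1 (-0.40) of astrocytes, Acta2 (-1.03) of mural cells, Col1a2 (-0.70) of fibroblasts, and Slc4a1 (-1.11) and Epb42 (-1.14) of red blood cells. In the hippocampus they were Aldh1l1 (-0.40), Slc1a2 (-0.31), Kl (-1.34) and Prlr (-1.77). The part of the vessel cells or of these other cells in the differences was not tested.

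The calls of Cgn and Lsr depended on which libraries were compared. The groups share no number series, and with the series as a term, which then rests on the control mice, Cgn turned to -0.15 (SE 0.43, adjusted p = 1) and Lsr had -0.32 (SE 0.28, adjusted p = 1). Among libraries with the low share of reads outside genes, 5 treated and 5 untreated, Cgn had 0.30 (SE 0.19, adjusted p = 0.886), Lsr -0.26 (SE 0.17, adjusted p = 0.889) and Cldn5 -0.22 (SE 0.22, adjusted p = 0.933). Leaving out 1 SS + RSD mouse at a time left 0 of the 9 genes called without mouse 5391, 9615, 9616 or 9621, and 1, Cgn, without mouse 5354 or 5400. Without the mice whose blood genes went against the label, Cgn had 0.83 (adjusted p = 0.0465) and Lsr -0.41 (adjusted p = 0.0664). Minocycline and the number series cannot be told apart here.

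**Figure D4:**
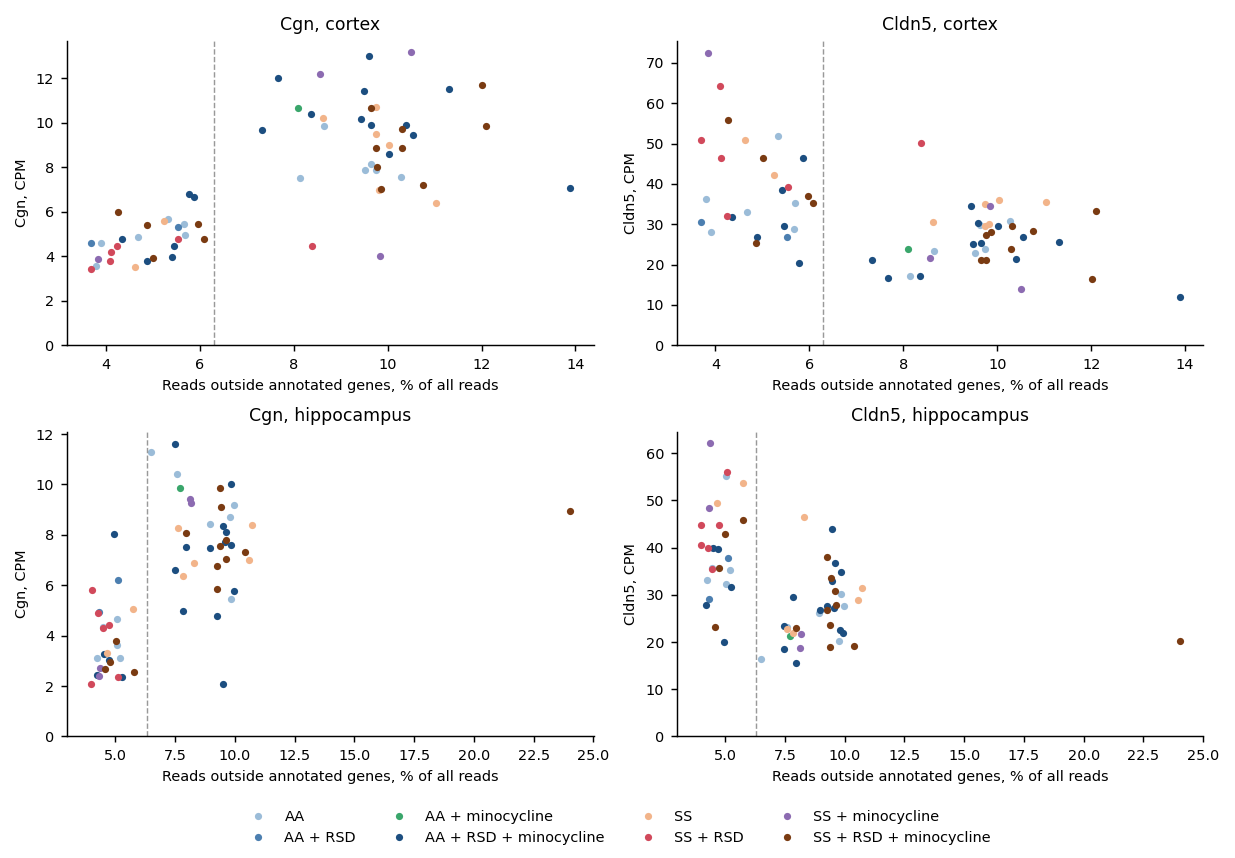
CPM of Cgn (left) and Cldn5 (right) against the share of reads outside annotated genes, in percent of all reads, for the cortex (top) and the hippocampus (bottom), with 1 point per library coloured by group and a dashed line at the 6.3% that separates the 2 classes of libraries. In the cortex Cgn stays at 6.80 CPM or below left of the line and has a median of 9.58 CPM right of it, while Cldn5 reaches its highest values left of it.

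Across all groups, cingulin and claudin-5 followed that share in opposite directions. In the cortex Cgn had 3.41, 4.78 and 6.80 CPM in the 27 libraries of low share and 4.005, 9.58 and 13.2 CPM in the 38 of high share. In the hippocampus it had 2.07, 3.27 and 8.04 CPM in 26 libraries and 2.09, 7.82 and 11.6 CPM in 37. Cldn5 had 20.4, 36.3 and 72.4 CPM against 11.98, 26.2 and 50.2 CPM in the cortex, and 20.1, 39.8 and 62.2 CPM against 15.6, 26.1 and 46.4 CPM in the hippocampus. F11r went in the direction of Cldn5, at 6.602, 9.84 and 12.3 CPM against 5.22, 7.03 and 8.58 CPM in the cortex, with ranges that overlapped. Esam had medians of 17.1 and 19.3 CPM in cortex and 16.1 and 16.2 CPM in hippocampus libraries, and Tjp1 had 103 and 113 CPM and 103 and 109 CPM. Between Cldn5 and Cgn, after subtraction of the group means, Pearson's r was -0.59 over 65 cortex libraries and -0.66 over 63 hippocampus libraries, which share these properties of the libraries and are given as a description.

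Minocycline without RSD gave 0 calls among the 9 genes, by edgeR or DESeq2, in SS + minocycline against SS mice. It also gave 0 among all genes (0.0% in each tissue, with 1406 in the cortex and 449 in the hippocampus at an unadjusted p under 0.05, and 0 by DESeq2). The 4 SS + minocycline mice split by number series. In the cortex the series C mice 7108 and 7121 had 13.2 and 12.2 CPM of Cgn and the series B mice 9888 and 9889 had 4.005 and 3.88 CPM. For Cldn5 the order turned, with 13.9 and 21.6 CPM in the series C and 34.4 and 72.4 CPM in the series B mice. For Tjp1 it was 141 and 135 CPM against 105 and 40.4 CPM. Ocln had 8.11, 7.80, 7.91 and 7.03 CPM, all below the 8.56 CPM of the lowest SS mouse, a log2 fold change of -0.32 (SE 0.15, adjusted p = 0.697), and it was the 1 gene of the 9 with an unadjusted p under 0.05 in the cortex, with 0 in the hippocampus. The number of all genes that separate these groups was not counted, so the separation is not read as a result on Ocln.

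Restricted to series B (2 mice with minocycline and 6 SS controls), Cgn (-1.11, adjusted p = 0.0267), Cldn5 (0.76, adjusted p = 0.0431) and Tjp1 (-0.62, adjusted p = 0.0409) were called in the cortex, and for Cgn and Cldn5 this is the opposite direction to that with all mice. Mouse 9889 is 1 of these 2, and its cortex library had the lowest Tjp1 (40.4 CPM) and the highest Cldn5 (72.4 CPM) of the cortex libraries. SS + RSD + minocycline against SS + minocycline mice had 0 of the 9 genes and 0 of all genes called (0.0% in each tissue, with 816 and 998 at an unadjusted p under 0.05 and 0 by DESeq2), and 0 of the 9 genes had an unadjusted p under 0.05. Within series B alone, 12 and 2 mice, Lsr (-0.51, adjusted p = 0.0401) and Cldn5 (-0.93, adjusted p = 0.0133) were called in the cortex. Mouse 9889 is again 1 of the 2. The share of all genes called in these fits within series B is not given here.

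Mouse 9889 and mouse 7076 had cortex libraries with few reads on long transcripts. The balance of genes with over 7000 bases of exon to genes under 1500 bases, as a difference of medians of log2 CPM after centring each gene on its median over the libraries, was -1.57 and -1.26 in these libraries, at the low end of a range that reached 0.74. They held the lowest Tjp1, at 40.4 and 44.8 CPM against 73.8 to 143 CPM in the other 63, and Cldn5, whose transcript is short, at 72.4 and 55.8 CPM against 11.98 to 64.3 CPM. Without the libraries of low balance, 13 SS + RSD + minocycline against 6 SS + RSD mice gave calls for Cgn, Lsr, Cldn5 and Ocln in the cortex, 4 of the 9 genes. This fit was chosen after seeing the data. Its share of all genes called is not given here, and in the main fit that share was 8.85%. Tjp1 and Cldn5 had a Pearson's r of -0.54 over cortex and -0.62 over hippocampus libraries.

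**Figure D5:**
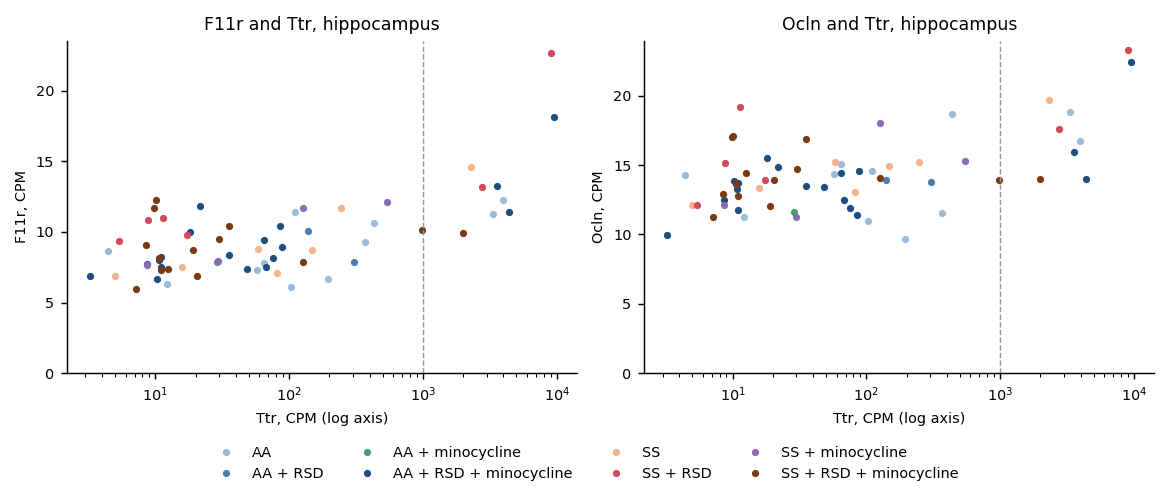
CPM of F11r (left) and Ocln (right) in hippocampus libraries against CPM of Ttr on a log axis, with 1 point per library coloured by group and a dashed line at 1000 CPM of Ttr. The 9 libraries right of the line hold the highest F11r (22.7 CPM) and Ocln (23.3 CPM). The 54 left of it span 5.96 to 12.3 CPM of F11r and 9.66 to 19.2 CPM of Ocln.

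Ttr, which the choroid plexus epithelium expresses at a very high level, varied widely among hippocampus libraries. The 9 hippocampus libraries with over 1000 CPM of Ttr, up to 9547 CPM, had 9.91, 13.2 and 22.7 CPM of F11r and 13.98, 17.6 and 23.3 CPM of Ocln. F11r in the other 54 had 5.96, 8.29 and 12.3 CPM, and Ocln had 9.66, 13.8 and 19.2 CPM. These libraries fall in several groups. Without them, F11r had 0.31 (adjusted p = 0.459) for RSD and -0.21 (adjusted p = 0.547) for minocycline after RSD in the hippocampus of SS mice. Ocln and F11r had a Pearson's r of 0.80 over the hippocampus libraries and 0.55 over those of the cortex, where 1 library passed 1000 CPM of Ttr.

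Jam2 was not called in any comparison, with group medians from 38.9 to 44.6 CPM in the cortex and from 36.4 to 46.2 CPM in the hippocampus. Its high values were in single libraries. In 5 cortex libraries whose cortical markers summed to under 300 CPM, Jam2 had 44.6, 60 and 106 CPM, against 24.7, 39.9 and 59.3 CPM in the other 60. The part of the dissection in these values was not tested.

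The genes whose levels most resembled those of 4 of the tight junction genes were sought over 65 cortex libraries, as Pearson's r of log2 CPM after subtraction of the group means. For Cldn5 they were Igfbp7 (r = 0.88, Spearman's rho = 0.84, and r = 0.66 over 63 hippocampus libraries), Wfdc1 (0.86, 0.82 and 0.85) and Atp5d (0.85, 0.79 and 0.80). For Esam they were Scarf1 (0.77, 0.72 and 0.57), Slc7a10 (0.77, 0.70 and 0.29) and Abtb1 (0.76, 0.75 and 0.50), and Esam itself went with Lsr at 0.60 in the cortex and 0.69 in the hippocampus. For Ocln they were Sgms1 (0.71, 0.66 and 0.45), Slfn5 (0.71, 0.61 and 0.40) and the endothelial transporter gene Abcb1a (0.70, 0.64 and 0.23). For Cgn they were Iqce (0.93, 0.93 and 0.85), L3mbtl1 (0.93, 0.92 and 0.87) and Carmil3 (0.93, 0.91 and 0.84). The libraries share depth, balance and the share of reads outside genes, and as the highest of all genes these values carry no p.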

How the data were processed

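Bulk RNA was measured as polyA-selected, directional, single-read libraries of cortex and hippocampus. Alignment by the authors used STAR against GRCm39 and GENCODE gene models, and the deposited tables hold raw read counts per gene. The STAR version, the annotation release and the strand setting of the counting are not given in the sources used here. Lines of the tables that name no gene took 28.3% of the reads in the cortex and 29.4% in the hippocampus, and were left out of library sizes and tests, as were 3 columns that matched no sample. Columns were tied to samples by the labels, which gave 134 libraries with a group. A library of an AA mouse whose labels disagree on its tissue was left unassigned. The libraries of mice 9877 and 9887, which hold identical counts under different labels, and both libraries of mouse 9674 were left out, so that 128 libraries entered the models.

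Counts were tested in R 4.3.3 with edgeR 4.0.16 (quasi-likelihood test, TMM scaling, filterByExpr with a minimum count of 10 and a minimum total of 15), with Benjamini-Hochberg adjustment over all genes tested, and a gene was called at an adjusted p under 0.05. A model of all groups of a tissue served the genotype comparisons, a model of the SS or the AA groups the others, and a model of the control libraries of both tissues the tissue comparison. CPM used TMM-scaled library sizes, and log2 CPM a prior count of 2. The 9 genes and the other gene lists were chosen with earlier results of these data known. All 9 genes were tested in each comparison and the number called is given, but not every gene has its value printed. Of the other lists at most 3 called genes by smallest adjusted p are named, and not for every list or comparison. Alternatives were RLE size factors, no filter, DESeq2 1.42.0, models of the compared groups only, number series as a term or one series alone, the share of reads outside genes as a term, each small-group mouse left out, libraries that go against their labels left out or kept, and the mouse as a block. Chosen after seeing the data were the balance of long and short transcripts as a term or a reason to leave libraries out, the classes of share outside genes at a limit of 6.3%, and leaving out libraries with over 1000 CPM of Ttr. Libraries of a mouse share its number in the labels, and over 18 control mice the deviations of both tissues from their group means had r of 0.176 to 0.907 (median 0.68), which pairs the tissues. The procedure was tested on simulated data. Counting error comes on top of the spread between mice, most for Marveld2.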

Additional observations from a re-analysis of the deposited data

Results flagged for a closer look

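Of 54 groups of 4 to 10 libraries examined gene by gene, 5 held a library far from the others, where chance gives about 1 in 20 groups. Ocln had 13.2 CPM in the cortex of SS mouse 9903, against 8.56 to 9.64 CPM in the other SS mice, and this library also had 1100 CPM of Ttr. Marveld2 had 1.21 CPM in the cortex of SS mouse 9848, against 1.90 to 2.37 CPM in the others. Jam2 had 72.1 CPM in the cortex of SS + RSD mouse 9621, against 40.5 to 48.5 CPM. F11r had 11.1 CPM in the cortex of SS + minocycline mouse 9889, against 7.27 to 7.42 CPM, and Jam2 had 52.5 CPM in the hippocampus of the same mouse, against 39.1 to 39.4 CPM. The part of the dissection or of the library in these values was not tested.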

How the results depend on the processing

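Counts here are of the 9 genes called, and the share of all genes called under each alternative is not given here. In SS against AA mice the cortex count of 1 fell to 0 without the filter, with the number series or the share of reads outside genes as a term, within series A or B alone, without mouse 9903, among libraries of low share only, and without libraries with over 1000 CPM of Ttr. The hippocampus count of 1 fell to 0 within series A or B alone, among libraries of low share and without high Ttr. In SS + RSD against SS mice the cortex count of 0 became 1 with DESeq2 and without the libraries of lowest balance, and 2 in the model of these groups only. In SS + RSD + minocycline against SS + RSD mice the cortex count of 2 became 1 with RLE size factors, without the filter, without mice 5844, 5853, 7078 and 9631 and with identical libraries kept. It became 0 with the series or the share as a term and among libraries of low share only, and 4 with the balance as a term and without the lowest balance, and it ranged from 0 to 1 when each SS + RSD mouse was left out in turn. Among libraries of high share only, 9 treated mice stand against 1 untreated mouse, which cannot decide a call. The hippocampus count of 0 became 1 with DESeq2, in the model of these groups only and with the balance as a term. Within series B alone, the cortex count of 0 became 3 for SS + minocycline against SS mice and 2 for SS + RSD + minocycline against SS + minocycline mice. Between the tissues the AA count of 2 became 1 without the filter and without high Ttr, and the SS count of 1 became 2 with the mouse as a block, which changed no other call. The direction turned for Cgn in SS + RSD + minocycline against SS + RSD mice with the series as a term (-0.15, cortex), and for Cldn5 (0.76) and Cgn (-1.11) in SS + minocycline against SS mice within series B. The causes were not tested. Of the other counts under alternatives 322 stayed within 1.5 times. Depth limits Marveld2, with as few as 16 reads, and the 2 AA + RSD mice limit each comparison that uses them.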
